A study of Homo sapiens with 16 samples.

Results

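The 39 genes described here are known androgen-induced genes that are neither kallikreins, ETS fusion partners nor prostate lineage factors. They were taken by symbol from a list written from general knowledge, and each of the 39 symbols matched 1 of the 60605 Ensembl identifiers in both count tables. The rule itself uses no measured value, but the members were chosen with earlier results of these data known. Counts of members set beside those of all genes are therefore a description and not an independent test. They cover transcription and chromosome proteins (6 genes), receptors, kinases and signal regulators (9), transporters, a channel and metalloreductases (5), metabolic enzymes (7), vesicle, scaffold and other proteins (7), sterol and acyl-CoA handling (3) and keratins (2). All 39 passed the filter on low counts in each of the 10 comparisons below.

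The assay was PRO-seq, in which nuclei extend their engaged RNA polymerases with labelled nucleotides and the nascent RNA is sequenced, so that a gene's count reports ongoing transcription and not stored mRNA. The cells were LNCaP, an established human prostate cancer line that grows in response to androgens, kept in serum-containing medium, and the labels' protocols name no added androgen. In batch 2, cells received DMSO vehicle or 10 µM enzalutamide for 90 min, and the irradiated dishes received 6 Gy of ionizing radiation (IR) after 30 min of drug or vehicle, 60 min before collection. The 4 groups of batch 2 are vehicle, vehicle plus IR, enzalutamide, and enzalutamide plus IR, each with the replicates numbered 3 and 4. Batch 1 holds mock-treated and 6 Gy irradiated cells with no enzalutamide, each with the replicates numbered 1 and 2 and with libraries named t1 and t2 under each number, whose counts were summed. All 6 groups come from the same cell line, so they speak for LNCaP alone. The labels do not say that replicates were separate cultures, so p-values measure only the spread between these samples, which may be technical.

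The androgen receptor is a ligand-activated transcription factor that enters the nucleus when it binds androgen and activates genes through nearby enhancers, often together with the pioneer factor FOXA1. Enzalutamide competes with androgen for the receptor's ligand pocket and hinders its nuclear entry and its binding to DNA. In prostate luminal cells the receptor's targets include secretory proteases, transporters, metabolic enzymes and regulators of growth signalling, and the measurement of nascent transcription can follow such genes before mRNA levels have time to move.

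Promoter sequences are shown for 3 of the genes whose transcription fell under enzalutamide, C1orf116, PMEPA1 and ABCC4, because they let the reader see what lies directly upstream of genes that responded together, and for STK39 because it holds the only match found among the members to AGAACA, the core hexamer of androgen receptor motifs. Each runs 5′ to 3′ over the 250 bases before the RefSeq start (assembly GRCh38.p14), all on the minus strand, at chr1:207032757-207033006, chr20:57711473-57711722, chr13:95301452-95301701 and chr2:168247596-168247845 in that order. Capitals mark a match to that hexamer.
C1orf116: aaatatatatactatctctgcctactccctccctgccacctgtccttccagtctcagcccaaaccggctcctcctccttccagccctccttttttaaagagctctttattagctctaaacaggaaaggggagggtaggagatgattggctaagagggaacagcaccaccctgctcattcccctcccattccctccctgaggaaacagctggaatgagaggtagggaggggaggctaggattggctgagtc
PMEPA1: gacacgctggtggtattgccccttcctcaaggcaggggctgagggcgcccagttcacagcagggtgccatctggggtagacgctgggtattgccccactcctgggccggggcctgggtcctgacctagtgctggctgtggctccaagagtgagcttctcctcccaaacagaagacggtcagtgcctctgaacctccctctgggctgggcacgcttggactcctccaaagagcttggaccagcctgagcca
ABCC4: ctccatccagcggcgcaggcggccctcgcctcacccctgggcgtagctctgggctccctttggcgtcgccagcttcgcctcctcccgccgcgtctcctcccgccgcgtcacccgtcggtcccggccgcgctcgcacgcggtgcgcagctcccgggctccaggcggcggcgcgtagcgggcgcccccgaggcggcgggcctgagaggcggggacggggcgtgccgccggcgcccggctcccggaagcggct
STK39: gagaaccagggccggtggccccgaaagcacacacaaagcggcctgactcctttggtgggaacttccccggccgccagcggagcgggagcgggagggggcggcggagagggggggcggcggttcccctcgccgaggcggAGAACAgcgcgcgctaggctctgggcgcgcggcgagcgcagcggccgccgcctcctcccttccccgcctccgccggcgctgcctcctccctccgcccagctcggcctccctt

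The C1orf116 window has a GC content of 52.4%, against 63.2% for PMEPA1, 76.4% for STK39 and 80.4% for ABCC4. RefSeq entries of this kind matched 28 of the 39 members. Among the genes that fell, ZBTB10, ELL2 and GREB1 had none and were not searched. Each window was searched on both strands for the hexamer AGAACA, which reads TGTTCT on the other strand. The same was done for the core of forkhead factor motifs, TGTTTAC, which reads GTAAACA on the other strand. The hexamer was found in 1 of 28 member windows (3.57%), that of STK39, and in 12.4% of the 27305 windows of all genes. The forkhead core was in 0 of 28 member windows and in 3.01% of all windows. These counts describe 250 bases beside each start and nothing farther away.

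Levels are given as CPM, a gene's count scaled to the library's total after TMM factors (trimmed means that even out library composition), with the replicates in the order of their numbers. The TMM factors behind these levels were set within each batch, so CPM values do not share a composition scale across batches. Total counts were 10494563 to 19905824 per library in batch 2 and 8022989 to 16851473 per sample in batch 1 after summing. The single libraries of batch 1 held 3438642 to 9363458 counts and entered the sums in unequal shares. The t1 library was the larger in mock replicate 2 and irradiated replicate 1, and the t2 library in the other samples. Where t1 and t2 differ, the summed values depend on this mix. The 9 prostate luminal markers, which include the 2 keratins of the members, summed to 2570 to 3482 CPM in every sample, whereas 13 markers of other cell types (blood, endothelium, stroma, basal epithelium and neuroendocrine cells) summed to 35.0 to 72.4 CPM, with CHGA at 0 in all 12 samples. As a check of the radiation, 10 of 10 reference p53 target genes rose with IR in each batch. Replicates of a group differed by more than sampling noise, with a chi-square per degree of freedom of 3.88 to 7.56 across genes. The t1 and t2 libraries of batch 1 stand apart from each other in a way that goes against their shared label, and values with t1 or t2 alone are given with the radiation results.

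Transcription of 6 of the 39 genes fell with enzalutamide and that of 0 rose, when its effect was averaged over the irradiated and the unirradiated cells. The genes that fell were ZBTB10, a zinc finger transcription factor; ELL2, an RNA polymerase II elongation factor; GREB1, a coactivator of steroid receptors; PMEPA1, a membrane regulator of TGF-β and androgen signalling; C1orf116, an androgen-regulated gene of poorly known function; and ABCC4, an efflux transporter. Relative to vehicle, ABCC4 fell by 24.0% and C1orf116 fell by 32.9%, and the other 4 lay in between. A gene was called when its edgeR p-value, adjusted by the Benjamini-Hochberg method over all genes tested, was under 0.05. Over all 28651 genes tested, 0.0628% were called lower (18 genes) and 0.0% higher, so the 6 members make up 33.3% of the genes that fell. At an unadjusted p under 0.05, 19 of 39 members were lower and 0 higher, beside 866 and 914 of the 28651 genes. The count of 6 was 2 without replicate 4 of vehicle, 2 without replicate 3 of enzalutamide plus IR and 3 without replicate 3 of vehicle plus IR.

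The median log2 fold change of the 39 genes was -0.21, beside 0.00074 for all genes, and 32 of 39 members had a value below 0 (82.1%), against 49.8% of all genes. The range ran from -0.61 for TRPM8 to 0.13 for ERRFI1. Replicates 3 and 4 have counterparts in every group of batch 2, and a model with the replicate number as a block (the replicate block) called 18 members lower and 0 higher, where it called 0.667% of all genes lower and 0.283% higher. The 12 further genes were UAP1, CROT, ADAM7, TRPM8, STK39, STEAP2, STEAP1, CAMKK2, SORD, HOMER2, TPD52 and PLPP1. For 31 of 39 members the 95% interval of the change lay within a 1.5-fold change in either direction, as did 19678 of the 28651 genes. In bulk samples, fewer cells transcribing a gene and less transcription per cell cannot be told apart.

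**Figure D1:**
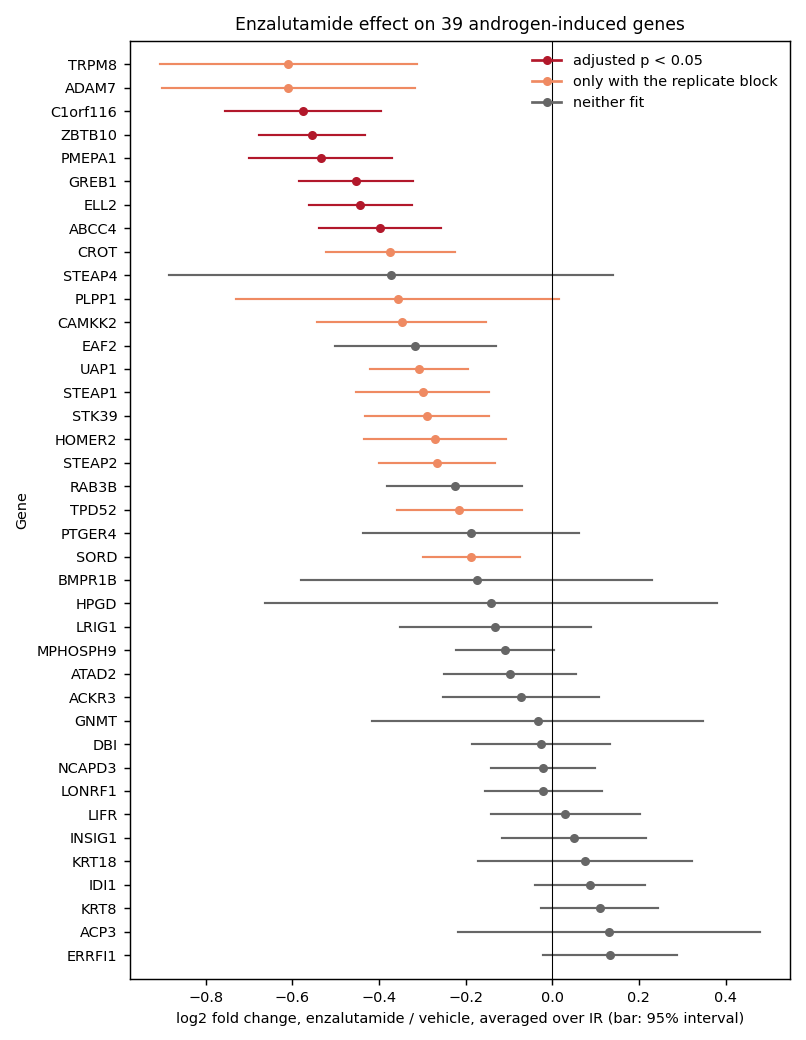
Log2 fold change of each of the 39 genes under enzalutamide, averaged over IR, on the x axis, with points for the estimate and bars for the 95% interval from 8 libraries of batch 2. Colours mark genes called at an adjusted p under 0.05 in the model without a block (6 genes), those called with the replicate block alone (12) and the rest (21), and 32 of the 39 points lie below 0.

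Among the 6 genes of transcription and chromosomes, 3 fell, and the group's median log2 fold change was -0.38, with each of the 6 values below 0. ZBTB10, a BTB domain zinc finger protein known as a repressor of Sp factor genes, measured 141 and 135 CPM with vehicle, 124 and 121 with vehicle plus IR, 99.4 and 91.7 with enzalutamide and 77.8 and 86.4 with enzalutamide plus IR. Every enzalutamide library lay below every library without the drug. The log2 fold change was -0.56 (SE 0.057, adjusted p = 0.000961), and ZBTB10 fell by 31.9%. The call held in every alternative tried, with an adjusted p of at most 0.0132. ELL2, which is part of the super elongation complex that releases paused polymerase, measured 99.9 and 102 CPM with vehicle, 107 and 101 with vehicle plus IR, 76.4 and 69.7 with enzalutamide and 75.8 and 79.8 with enzalutamide plus IR. The 4 treated libraries again lay below the 4 untreated ones. Its log2 fold change was -0.44 (SE 0.055, adjusted p = 0.00512), and the call was lost without replicate 3 of enzalutamide plus IR (adjusted p = 0.0524). The span of ELL2 overlaps that of CAST in RefSeq, and the log2 fold change of CAST was 0.018 (adjusted p = 0.978).

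GREB1, first known as an oestrogen-induced growth gene, measured 96.5 and 105 CPM with vehicle, 88.4 and 88.9 with vehicle plus IR, 76.2 and 67.3 with enzalutamide and 69.4 and 63.6 with enzalutamide plus IR. The groups with and without the drug did not overlap. Its log2 fold change was -0.45 (SE 0.061, adjusted p = 0.0105). The call was lost without replicate 4 of vehicle (adjusted p = 0.0652), without replicate 3 of vehicle plus IR (0.0503) and without replicate 4 of enzalutamide plus IR (0.0611). EAF2, a partner of the ELL proteins and a candidate prostate tumour suppressor, measured 18.9 and 18.5 CPM with vehicle, 21.3 and 18.2 with vehicle plus IR, 16.1 and 14.5 with enzalutamide and 15.4 and 15.5 with enzalutamide plus IR. It lay lower with the drug in both IR states, at a log2 fold change of -0.32 (SE 0.086, adjusted p = 0.514, and 0.0515 with the replicate block), and so was not called by either model. ATAD2, a bromodomain ATPase, and NCAPD3, a subunit of condensin II, were close to 0, at -0.098 (95% interval -0.25 to 0.056) and -0.022 (-0.14 to 0.097).

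Of the 9 receptors, kinases and signal regulators, only PMEPA1 was called, and the group's median log2 fold change was -0.17. PMEPA1 binds SMAD proteins and brings a NEDD4-type ubiquitin ligase to its partners. It measured 89.9 and 105 CPM with vehicle, 106 and 122 with vehicle plus IR, 61.0 and 65.0 with enzalutamide and 77.4 and 90.8 with enzalutamide plus IR. Within each IR state the drug's libraries lay below those without it, although replicate 4 of enzalutamide plus IR was above replicate 3 of vehicle without IR. The log2 fold change was -0.53 (SE 0.077, adjusted p = 0.0165). Its call was lost without replicate 4 of vehicle (adjusted p = 0.0645), replicate 4 of vehicle plus IR (0.0755) or replicate 3 of enzalutamide plus IR (0.112). The antisense gene NKILA overlaps PMEPA1, and its level was 3.05 to 6.79 CPM in all samples.

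CAMKK2, a calcium-dependent kinase that activates AMPK, measured 160.0 and 135 CPM with vehicle, 169.5 and 140.1 with vehicle plus IR, 121 and 100.03 with enzalutamide and 141 and 114 with enzalutamide plus IR. Replicate 4 was below replicate 3 in each group, and the drug's libraries were below the untreated ones of the same number. The log2 fold change was -0.35 (SE 0.091, adjusted p = 0.447, and 0.000105 with the replicate block). STK39, a kinase that regulates cation-chloride cotransporters and whose promoter is shown above, measured 712 and 804 CPM with vehicle, 656 and 706 with vehicle plus IR, 614 and 621 with enzalutamide and 518 and 603 with enzalutamide plus IR. All 4 treated libraries lay below the untreated ones, and the log2 fold change was -0.29 (SE 0.067, adjusted p = 0.324, and 0.00238 with the replicate block).

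The other 6 genes of this group were not called for enzalutamide by either model. PTGER4, a prostaglandin E2 receptor, measured 17.0 and 13.5 CPM with vehicle, 15.1 and 12.1 with vehicle plus IR, 13.1 and 11.6 with enzalutamide and 14.01 and 11.9 with enzalutamide plus IR, with a log2 fold change of -0.19 (SE 0.12, adjusted p = 0.859). ACKR3, a scavenging receptor for the chemokine CXCL12, measured 226 and 199.6 CPM with vehicle, 183 and 154 with vehicle plus IR, 218 and 172 with enzalutamide and 178 and 156 with enzalutamide plus IR, with -0.071 (SE 0.084, adjusted p = 0.925). BMPR1B, a type I receptor of bone morphogenetic proteins, measured 27.1 and 44.1 CPM with vehicle, 24.9 and 38.5 with vehicle plus IR, 25.9 and 39.4 with enzalutamide and 20.6 and 34.1 with enzalutamide plus IR. Its replicates differed by more than the groups did, replicate 4 being the higher in all 4 groups, and the log2 fold change was -0.17 (SE 0.19, adjusted p = 0.918). ERRFI1, a feedback inhibitor of the EGF receptor, measured 63.5 and 63.9 CPM with vehicle, 52.96 and 54.1 with vehicle plus IR, 66.7 and 59.4 with enzalutamide and 68.4 and 62.0 with enzalutamide plus IR, and its value of 0.13 (SE 0.072, adjusted p = 0.835) was the highest of the 39. LIFR, a cytokine receptor, and LRIG1, an inhibitor of ERBB receptors, had log2 fold changes of 0.03 (-0.14 to 0.20) and -0.13 (-0.35 to 0.088).

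All 5 transporters, channels and metalloreductases had log2 fold changes below 0, with a median of -0.37, and ABCC4 alone was called without the block. ABCC4, which exports cyclic nucleotides and prostaglandins, measured 410.0 and 463 CPM with vehicle, 371 and 399 with vehicle plus IR, 324 and 333 with enzalutamide and 272 and 318 with enzalutamide plus IR. The drug's libraries did not reach those without it. Its log2 fold change was -0.40 (SE 0.066, adjusted p = 0.0496), and this call sat at the threshold. It was lost with RLE scaling (adjusted p = 0.0569) and without any one of the 8 libraries except replicate 4 of enzalutamide plus IR (adjusted p from 0.0538 without replicate 3 of enzalutamide to 0.245 without replicate 4 of vehicle).

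TRPM8, a cold-sensing cation channel of prostate epithelium, measured 30.8 and 22.4 CPM with vehicle, 22.4 and 18.5 with vehicle plus IR, 18.1 and 13.2 with enzalutamide and 17.1 and 12.7 with enzalutamide plus IR. Its treated libraries lay below the untreated ones, and with ADAM7 it was the furthest from 0 of the 39 genes, at -0.61 (SE 0.14, adjusted p = 0.287, and 9.87e-05 with the replicate block). The STEAP proteins are membrane metalloreductases that pass electrons to iron and copper. STEAP2, the most strongly transcribed member per kilobase, measured 531 and 566 CPM with vehicle, 473 and 469 with vehicle plus IR, 466 and 429 with enzalutamide and 370.1 and 429 with enzalutamide plus IR. Its log2 fold change was -0.27 (SE 0.063, adjusted p = 0.345, and 0.00909 with the replicate block). STEAP1, which lacks the NADPH-binding part of the other STEAP proteins, measured 98.2 and 111 CPM with vehicle, 84.2 and 88.6 with vehicle plus IR, 90.7 and 76.9 with enzalutamide and 65.7 and 76.7 with enzalutamide plus IR, with -0.30 (SE 0.071, adjusted p = 0.35, and 0.0099 with the replicate block). The drug's libraries of both genes lay below the untreated ones of the same IR state.

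STEAP4 was near the lower end of detection, with 1.87 and 1.904 CPM with vehicle, 0.886 and 1.63 with vehicle plus IR, 1.27 and 1.39 with enzalutamide and 0.972 and 1.22 with enzalutamide plus IR. Its log2 fold change was -0.37 (SE 0.24, adjusted p = 0.863) with a 95% interval of -0.88 to 0.14, so that a change of the size seen in STEAP1 was not detectable at this depth. STEAP1 and STEAP2 are neighbours, and the transcript STEAP2-AS1, which overlaps STEAP1, had a log2 fold change of -0.20 (adjusted p = 0.66). Whether the counting used strand is not given in the sources used here, so reads of overlapping genes on opposite strands may be mixed.

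None of the 7 metabolic enzymes was called without the block, and 4 were called with it. The group's median log2 fold change was -0.19, and 6 of 7 values were below 0. UAP1, which makes UDP-N-acetylglucosamine for glycoprotein synthesis, measured 217 and 208 CPM with vehicle, 166 and 171 with vehicle plus IR, 171 and 163 with enzalutamide and 136 and 142 with enzalutamide plus IR. Treated and untreated libraries did not overlap within an IR state, and the log2 fold change was -0.31 (SE 0.052, adjusted p = 0.0581, and 0.000467 with the replicate block). CROT, a peroxisomal enzyme that moves medium-chain acyl groups to carnitine, measured 101 and 115.8 CPM with vehicle, 204 and 221 with vehicle plus IR, 82.5 and 91.7 with enzalutamide and 147 and 170.5 with enzalutamide plus IR. Enzalutamide lay below vehicle within each IR state, at -0.37 (SE 0.069, adjusted p = 0.0977, and 4.45e-05 with the replicate block), beside a radiation effect in the opposite direction that is described further on.

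SORD, which oxidizes sorbitol to fructose, measured 255 and 269 CPM with vehicle, 271 and 261 with vehicle plus IR, 238 and 225 with enzalutamide and 235 and 230.0 with enzalutamide plus IR. The log2 fold change was -0.19 (SE 0.052, adjusted p = 0.549, and 0.0471 with the replicate block). PLPP1, a lipid phosphate phosphatase, measured 1211 and 829.8 CPM with vehicle, 972 and 677 with vehicle plus IR, 969 and 558 with enzalutamide and 799 and 545 with enzalutamide plus IR. Replicates 3 and 4 of the same group differed by more than the drug's effect, but the enzalutamide library was the lower at either number and in either IR state. Its log2 fold change was -0.36 (SE 0.17, adjusted p = 0.827, and 0.000518 with the replicate block). ACP3, prostatic acid phosphatase, measured 41.0 and 28.7 CPM with vehicle, 32.1 and 24.1 with vehicle plus IR, 46.6 and 27.5 with enzalutamide and 36.9 and 25.8 with enzalutamide plus IR, with 0.13 (SE 0.16, adjusted p = 0.93). GNMT, a glycine methyltransferase, and HPGD, which degrades prostaglandins, were at 2.596 to 4.53 and 0.81 to 1.85 CPM in batch 2, and their intervals were wide, from -0.42 to 0.35 and from -0.66 to 0.38.

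Among the 7 vesicle, scaffold and other proteins, C1orf116 fell, and all 7 log2 fold changes were below 0, with a median of -0.23. C1orf116, also named SARG for specifically androgen-regulated gene, measured 248 and 231 CPM with vehicle, 208 and 189.7 with vehicle plus IR, 181 and 134 with enzalutamide and 144 and 127 with enzalutamide plus IR. All treated libraries lay below the untreated ones, and the log2 fold change was -0.57 (SE 0.084, adjusted p = 0.0165). The call was lost without replicate 3 or 4 of vehicle (adjusted p = 0.077 and 0.0526), replicate 3 of vehicle plus IR (0.0961), and replicate 3 or 4 of enzalutamide plus IR (0.0524 and 0.0924). ADAM7, a protein of the ADAM metalloprotease family best known from the epididymis, measured 9.21 and 11.6 CPM with vehicle, 7.97 and 9.70 with vehicle plus IR, 8.09 and 7.69 with enzalutamide and 4.78 and 4.86 with enzalutamide plus IR. The lowest levels were those of the combined treatment, and the log2 fold change averaged over IR was -0.61 (SE 0.14, adjusted p = 0.275, and 0.0139 with the replicate block).

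HOMER2, a scaffold of receptor signalling complexes, measured 135 and 142 CPM with vehicle, 155 and 184 with vehicle plus IR, 131 and 111 with enzalutamide and 143 and 124 with enzalutamide plus IR. It lay lower with the drug within each IR state, at -0.27 (SE 0.076, adjusted p = 0.549, and 0.0383 with the replicate block). TPD52, a protein of vesicle traffic and lipid storage that is often amplified in prostate cancer, measured 263 and 296 CPM with vehicle, 236 and 258 with vehicle plus IR, 229 and 242 with enzalutamide and 199 and 236 with enzalutamide plus IR. In both IR states its treated libraries were the lower ones, and the log2 fold change was -0.21 (SE 0.068, adjusted p = 0.671, and 0.0184 with the replicate block). MPHOSPH9, a centrosomal phosphoprotein, measured 179 and 189 CPM with vehicle, 172 and 161 with vehicle plus IR, 174 and 167 with enzalutamide and 153 and 156 with enzalutamide plus IR, with -0.11 (SE 0.053, adjusted p = 0.817). RAB3B, a GTPase of secretory vesicles, was at -0.23 (95% interval -0.38 to -0.07) and LONRF1, a RING finger protein, at -0.021 (-0.16 to 0.11).

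The 3 genes of sterol and acyl-CoA handling and the 2 keratins were not called by either model, and 4 of these 5 values were above 0. IDI1, an isomerase of the sterol pathway, measured 47.4 and 48.2 CPM with vehicle, 48.7 and 53.8 with vehicle plus IR, 48.6 and 49.1 with enzalutamide and 57.0 and 56.2 with enzalutamide plus IR. Its libraries were slightly higher with the drug in both IR states, by a log2 fold change of 0.087 (SE 0.059, adjusted p = 0.876). INSIG1, which holds the SREBP activator complex in the endoplasmic reticulum, measured 108 and 113 CPM with vehicle, 98.6 and 121 with vehicle plus IR, 114 and 107 with enzalutamide and 105 and 129.6 with enzalutamide plus IR, with 0.05 (SE 0.078, adjusted p = 0.943). DBI, the acyl-CoA binding protein, was at -0.026 (95% interval -0.19 to 0.13).

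KRT8 and KRT18 encode the paired keratins of luminal epithelium. KRT8 measured 55.5 and 61.1 CPM with vehicle, 59.6 and 57.7 with vehicle plus IR, 59.6 and 66.8 with enzalutamide and 66.1 and 60.3 with enzalutamide plus IR, with a log2 fold change of 0.11 (SE 0.063, adjusted p = 0.848) and an interval of -0.025 to 0.24. KRT18 measured 34.2 and 32.6 CPM with vehicle, 46.6 and 37.4 with vehicle plus IR, 37.1 and 32.2 with enzalutamide and 54.6 and 35.3 with enzalutamide plus IR, with 0.076 (SE 0.11, adjusted p = 0.942) and -0.17 to 0.32. RefSeq lists 52 pseudogenes of KRT8 and 68 of KRT18, and the spans of both genes overlap, so their counts are uncertain.

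**Figure D2:**
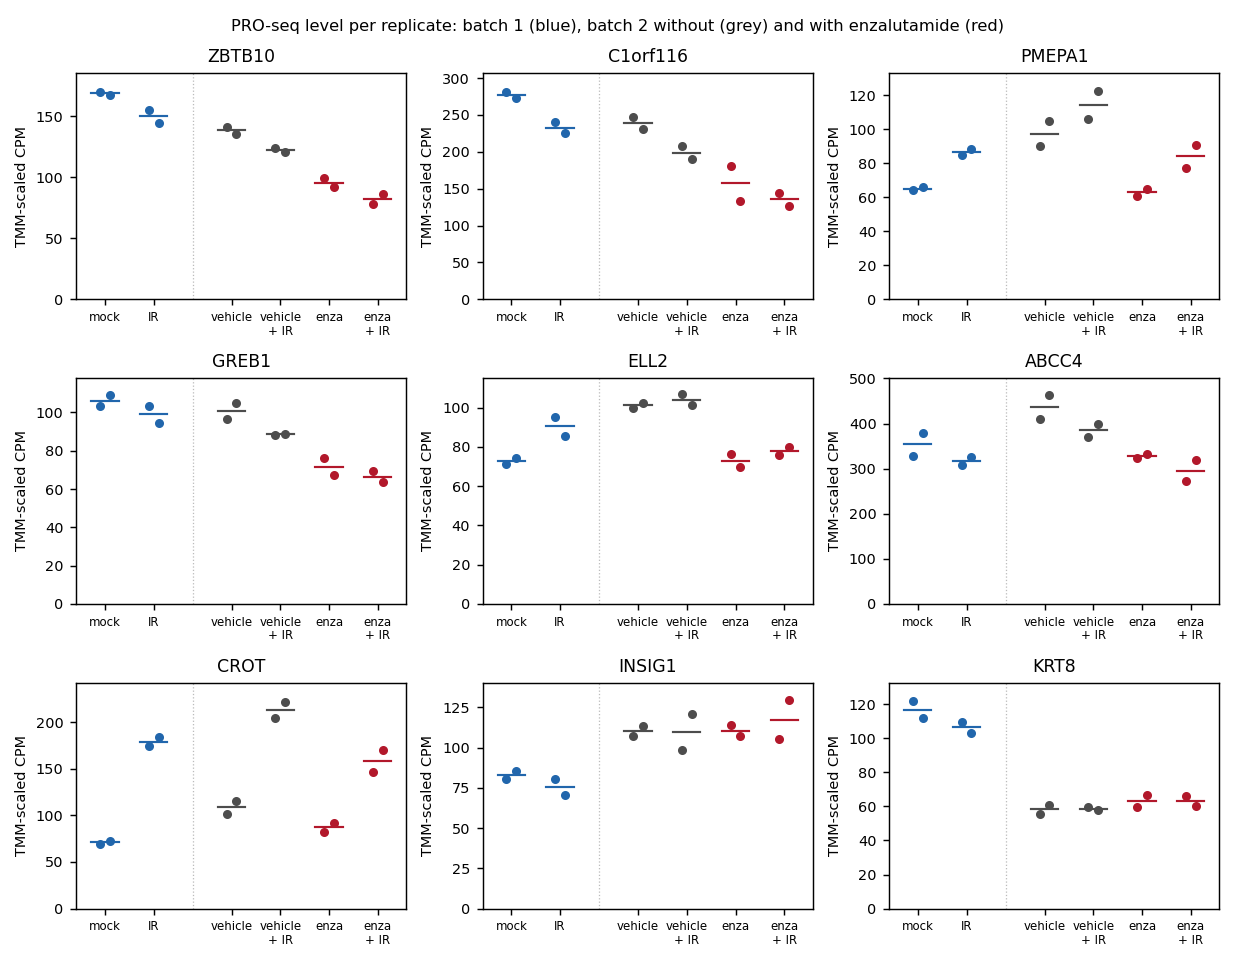
TMM-scaled CPM (y axis, linear and starting at 0) of 9 genes in each of the 6 groups (x axis), with 1 point per replicate and a line at the mean of 2, batch 1 in blue and batch 2 in grey (no drug) and red (enzalutamide). The first 6 panels are the genes that fell under enzalutamide, CROT stands out by its higher level in each irradiated group, the 4 groups of INSIG1 in batch 2 overlap, and so do KRT8's enzalutamide and vehicle groups without IR.

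A count of groups that did not overlap needs no model. In 18 of 39 members both enzalutamide replicates were below both vehicle replicates with and without IR, against 3.25% of all genes. The reverse held for 1 member, IDI1, against 4.19% of all genes. The 18 comprise the 6 genes that fell, 10 of the 12 called with the block alone (CAMKK2 and PLPP1 overlapped), and EAF2 and MPHOSPH9.

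Split by radiation, the members' median change under the drug was -0.26 without IR and -0.20 with IR. None of the 39 genes was called in either split, where 0.0105% of all genes (3 of 28651) were called lower and 0.0% higher. At an unadjusted p under 0.05, 16 members were lower and 0 higher without IR, beside 429 and 305 of the 28651 genes. With IR, 16 were lower and 1 higher, beside 447 and 412 genes. DESeq2 called 5 members lower without IR, beside 0.108% of the 11987 genes to which it gave an adjusted p. With IR it called 1 member lower, beside 0.0244% of 28651 genes. In each, 0.0% of these genes were called higher. The replicate block called 10 members lower and 0 higher without IR (0.161% and 0.0314% of all genes) and 8 lower and 0 higher with IR (0.164% and 0.0279%). ZBTB10, ELL2, GREB1, PMEPA1, C1orf116 and ABCC4 were among both.

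The change of ZBTB10 was -0.53 (SE 0.088) without IR and -0.58 (SE 0.089) with it. For C1orf116 the values were -0.60 and -0.55, for ELL2 -0.47 and -0.42, for GREB1 -0.49 and -0.41, and for ABCC4 -0.41 and -0.38. PMEPA1 was at -0.63 and -0.44. TRPM8 was further from 0 without IR (-0.74 against -0.46) and ADAM7 with IR (-0.40 against -0.87), but neither difference passed the test that follows.

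The test of the difference itself, the interaction of drug and radiation, called 0 of 39 members and 0.0% of all genes, and DESeq2 and the replicate block called 0 members as well (the block called 0.00349% of all genes higher and 0.0% lower). At an unadjusted p under 0.05 there was 1 member, ERRFI1, beside 183 genes higher and 160 lower of the 28651. Its change was -0.012 without and 0.28 with IR, an interaction of 0.30 (SE 0.13, adjusted p = 1 in edgeR). For 29 of the 39 genes the interval of the interaction lay within a 1.5-fold difference, as it did for 11678 of the 28651 genes. For ADAM7 it ran from -1.04 to 0.10 and for TRPM8 from -0.33 to 0.89.

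**Figure D3:**
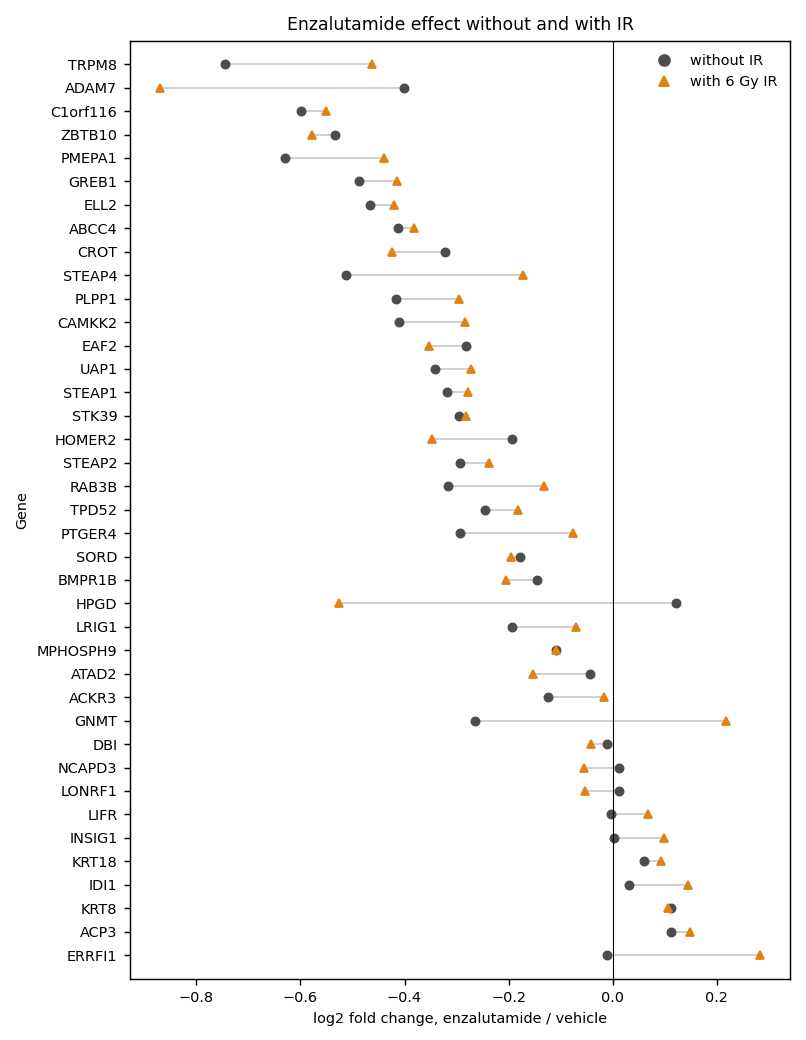
Log2 fold change of each of the 39 genes (x axis) under enzalutamide without IR (circles) and with 6 Gy IR (triangles), in the order of their average. The 2 symbols of the 6 genes that fell lie on the same side of 0, and no gene was called for a difference between them.

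Cells given both treatments were compared with vehicle cells given neither. Of the 39 genes, 9 fell and 1 rose, beside 0.569% of all genes called lower and 0.949% higher. The genes that fell were ADAM7 at -1.11 (SE 0.19, adjusted p = 0.00841), C1orf116 at -0.82, ZBTB10 at -0.75, UAP1 at -0.61, GREB1 at -0.60, ABCC4 at -0.56, STEAP1 at -0.56, STEAP2 at -0.46 and ELL2 at -0.38, with adjusted p-values from 0.00045 for ZBTB10 to 0.0488 for ELL2. Relative to vehicle, ADAM7 fell by 53.8% and ZBTB10 fell by 40.7%. CROT rose, by 0.55 (SE 0.1, adjusted p = 0.0194). PMEPA1, which fell under the drug, was not called here, at -0.21 (SE 0.11, adjusted p = 0.353).

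The size of this list rested on single libraries. It held 6 members without replicate 3 of vehicle, 5 without replicate 4 of vehicle, and 4 without replicate 3 or without replicate 4 of enzalutamide plus IR. CROT was lost without replicate 3 of vehicle (adjusted p = 0.27) or replicate 4 of enzalutamide plus IR (0.238), and UAP1 without replicate 3 of enzalutamide plus IR (0.0595). ADAM7 was lost without replicate 4 of vehicle (0.0986) or either replicate of enzalutamide plus IR (0.105 and 0.0954). GREB1 was lost without replicate 4 of vehicle (0.0654) or of enzalutamide plus IR (0.0986), C1orf116 without the latter (0.0859), and ABCC4 without replicate 4 of vehicle (0.134) or replicate 3 of enzalutamide plus IR (0.24). STEAP1 was lost in 3 omissions, with adjusted p up to 0.322, and STEAP2 and ELL2 in 6 each. Only ZBTB10 kept its call in all alternatives, with an adjusted p of at most 0.026. RLE scaling, with all samples kept, also lost ELL2. The replicate block called 17 members lower and 3 higher (CROT, IDI1 and KRT18), beside 5.02% and 6.17% of all genes. The 8 members added to the lower side were TRPM8, STK39, TPD52, MPHOSPH9, ACKR3, PLPP1, CAMKK2 and BMPR1B. This comparison shares its vehicle libraries with the drug and radiation comparisons, so its values are not independent of theirs.

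CROT was the 1 member that rose with radiation in each batch and with either drug state. In batch 1 CROT measured 68.9 and 73.0 CPM in mock and 174 and 184 in irradiated cells, and in batch 2 it went from 101 and 115.8 to 204 and 221 with vehicle and from 82.5 and 91.7 to 147 and 170.5 with enzalutamide. Irradiated and unirradiated libraries were far apart within each pair of groups. The log2 fold changes were 1.34 (SE 0.12, adjusted p = 2.3e-05) in batch 1, 0.97 (SE 0.1, adjusted p = 0.000198) in vehicle cells and 0.87 (SE 0.11, adjusted p = 0.000663) in enzalutamide cells, or 2.52-, 1.96- and 1.82-fold. These calls held in all alternatives. Over all genes, 2.0% were called higher and 0.819% lower in batch 1, 0.743% and 0.353% in vehicle cells, and 0.625% and 0.293% in enzalutamide cells.

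CROT lies at chr7:87345664-87399794 (GRCh38.p14, plus strand), where it overlaps ABCB4, a phospholipid transporter gene, and lies near ABCB1, which encodes the drug efflux pump P-glycoprotein. ABCB4 stayed at 1.00 to 2.97 CPM in all samples, with log2 fold changes of -0.013 in batch 1 and -0.066 in vehicle cells (adjusted p = 0.997 and 0.96). ABCB1 rose by 3.47 with IR in vehicle cells and by 2.66 in enzalutamide cells (adjusted p = 5.73e-07 and 1.19e-05) but was at 0.10 in batch 1 (adjusted p = 0.931), where CROT rose. The part of reads from these neighbours in the CROT counts was not tested.

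Beyond CROT, few members were called for radiation. Values below 0 numbered 31 of 39 in batch 1, 25 in vehicle cells and 21 in enzalutamide cells, where 50.4%, 50.9% and 52.6% of all genes were below 0. The count in enzalutamide cells was thus near that share. The medians were -0.15 in batch 1 and in vehicle cells and -0.032 in enzalutamide cells, against -0.0021, -0.0057 and -0.014 for all genes. The vehicle-cell median was -0.087 without vehicle replicate 3 and -0.086 without vehicle replicate 4. In enzalutamide cells the median changed sign, to 0.095 without enzalutamide replicate 3 and to 0.021 without replicate 4 of enzalutamide plus IR. In batch 1 TRPM8 fell, from 45.8 and 46.8 to 33.4 and 34.8 CPM, a log2 change of -0.44 (SE 0.1, adjusted p = 0.044). That call was lost with total-count scaling (adjusted p = 0.0545), with DESeq2 (0.206), and without mock replicate 2 (0.0576), irradiated replicate 1 (0.272) or irradiated replicate 2 (0.204). In vehicle and in enzalutamide cells of batch 2 no member other than CROT was called.

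With 4 samples of each batch in 1 model, 2 members rose and 5 fell with IR, beside 2.39% of all genes called higher and 1.66% lower. The members' median was -0.16, with 30 of 39 values below 0, against -0.024 and 55.1% for all genes. CROT rose by 1.14 (adjusted p = 1.26e-08). PMEPA1, from 64.0 and 66.1 to 84.7 and 88.5 CPM in batch 1 and 89.9 and 105 to 106 and 122 in vehicle cells, rose by 0.31 (SE 0.077, adjusted p = 0.023). UAP1 fell by 0.34 on the log2 scale (SE 0.073, adjusted p = 0.00644), from 162 and 146 to 131 and 113 CPM in batch 1 and 217 and 208 to 166 and 171 in vehicle cells, without overlap in either batch.

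STEAP1 went from 156 and 152 to 129 and 119.8 CPM in batch 1 and from 98.2 and 111 to 84.2 and 88.6 in vehicle cells, a change of -0.30 (SE 0.07, adjusted p = 0.0133). ACKR3 went from 212 and 233 to 174 and 187 and from 226 and 199.6 to 183 and 154, a change of -0.33 (SE 0.079, adjusted p = 0.0175). Irradiated libraries of both genes were the lower ones in each batch. TRPM8 changed by -0.42 (SE 0.097, adjusted p = 0.0136) and C1orf116 by -0.27 (SE 0.072, adjusted p = 0.0364), the latter from 282 and 273 to 241 and 225 CPM in batch 1 and 248 and 231 to 208 and 189.7 in vehicle cells. STEAP2-AS1, which overlaps STEAP1, changed by -0.32 (adjusted p = 0.0132).

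These calls rested on few libraries. The count of called members, 7 with all samples, was 4 without mock replicate 2, 3 without irradiated replicate 1 of batch 1, 1 without irradiated replicate 2 of batch 1, 2 without vehicle replicate 3 and 3 without replicate 4 of vehicle plus IR. CROT was the member that kept its call in all of these. UAP1 was lost without irradiated replicate 2 of batch 1 (adjusted p = 0.11) and without vehicle replicate 3 (0.0646), while the others were lost in 4 to 7 of the 8 omissions. Without irradiated replicate 2 of batch 1 the adjusted p was 0.156 for STEAP1, 0.0522 for TRPM8, 0.0755 for ACKR3, 0.0548 for PMEPA1 and 0.27 for C1orf116. RLE scaling lost C1orf116 (adjusted p = 0.125) and ACKR3 (0.0541), and fitting with no filter lost C1orf116 (0.185) and STEAP1 (0.0954). With t1 alone for batch 1, CROT and TRPM8 kept their calls among the 7, and UAP1 did not (adjusted p = 0.149). With t2 alone CROT was the 1 member called. UAP1 was then at an adjusted p of 0.0806, TRPM8 at a log2 change of -0.13 (0.616) and C1orf116 at -0.08 (0.698).

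With the replicate block, members called in batch 1 were 4 higher (CROT, PMEPA1, ELL2 and PTGER4) and 7 lower (TRPM8, HOMER2, UAP1, STEAP1, ACKR3, ACP3 and C1orf116), beside 4.77% and 4.24% of all genes. In vehicle cells they were CROT on the higher side, and UAP1, ACKR3, C1orf116, TRPM8 and PLPP1 on the lower (2.56% and 2.03% of all genes). In enzalutamide cells CROT and PMEPA1 were higher and UAP1 and ADAM7 lower (1.87% and 1.45%). Over both batches 2 were higher and 12 lower (3.56% and 3.14%), adding STEAP2, ERRFI1, ZBTB10, ACP3, TPD52, ABCC4 and PLPP1 to the 5 that fell without it. PTGER4 in batch 1 went from 10.4 and 7.25 to 14.8 and 11.0 CPM, ELL2 from 71.1 and 74.2 to 95.2 and 85.7, and ACP3 from 46.0 and 53.2 to 38.6 and 44.0. These 3 differed by library set, and they were not the only ones of the called genes to do so. PTGER4 was at 1.38 (adjusted p = 0.00114) with t1 alone and -0.61 (adjusted p = 0.0493) with t2 alone. ACP3 was at -0.82 (adjusted p = 0.00131) and 0.31 (adjusted p = 0.0365), and ELL2 at -0.044 (adjusted p = 0.87) and 0.73 (adjusted p = 0.000271), in the same order. PMEPA1 was at 0.072 (adjusted p = 0.773) with t1 alone and 0.81 (adjusted p = 8.86e-05) with t2 alone. C1orf116 was at -0.55 (adjusted p = 0.0506) and 0.12 (adjusted p = 0.472), and TRPM8 is described below. CROT, UAP1, HOMER2, STEAP1 and ACKR3 had the same sign with either set.

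**Figure D4:**
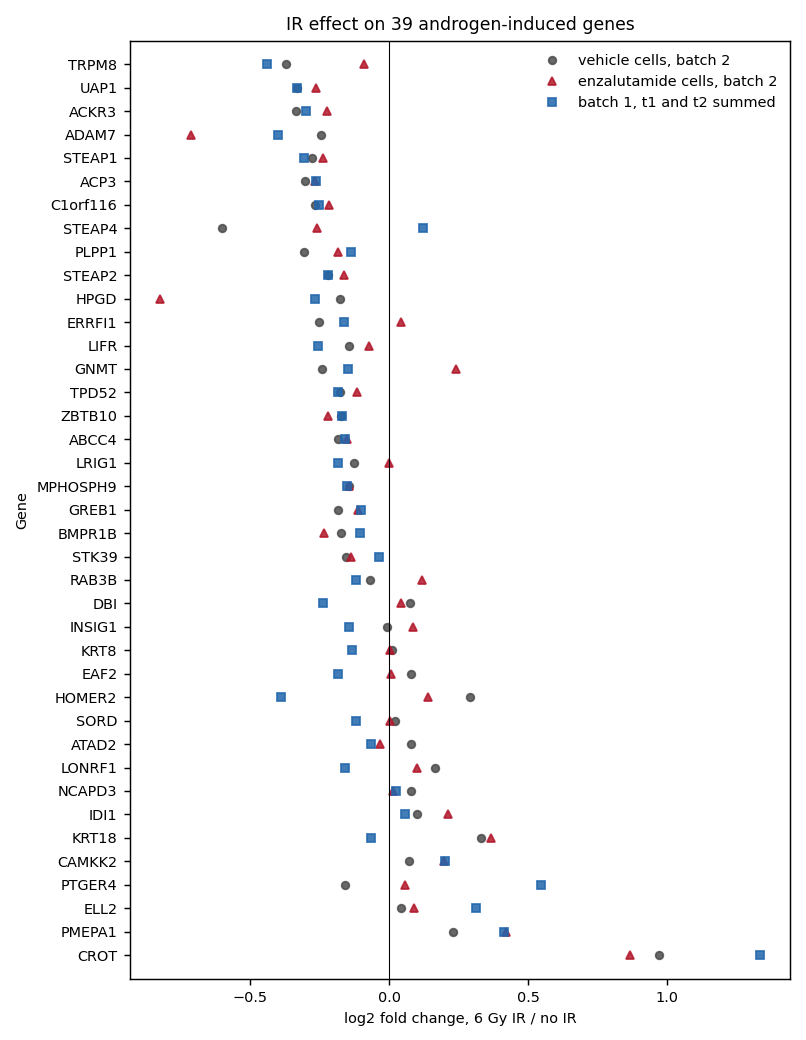
Log2 fold change of each of the 39 genes (x axis) under 6 Gy IR in vehicle cells (circles) and enzalutamide cells (triangles) of batch 2 and in batch 1 (squares, t1 and t2 summed). CROT lies far to the right with all 3 symbols, between 0.87 and 1.34, and the other genes lie between -0.82 and 0.55.

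The difference of the radiation effect between the batches was tested for all members and called for 0 of 39, where 0.0548% of all genes were called higher and 0.0514% lower in batch 1. At an unadjusted p under 0.05, 3 members had the lower and 2 the higher effect in batch 1, beside 545 lower and 1106 higher of 29195 genes. DESeq2 called 1 member, where it called 0.0803% higher and 0.058% lower of the 22402 genes to which it gave an adjusted p. HOMER2 had the largest such difference of the 39, from 243 and 256 to 199 and 182 CPM in batch 1 and from 135 and 142 to 155 and 184 in vehicle cells, a difference between the changes of -0.71 (adjusted p = 0.187, and 0.00484 with the replicate block, which called 0.103% of all genes lower and 0.226% higher). Labels give the timing of IR for the scheme of batch 2, and batch, replicate number and any difference in timing cannot be told apart here.

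Within batch 1, the t1 and t2 libraries of the same replicate gave opposite radiation effects for many members and for many genes in general. In 18 of 39 members (46.2%), t1 exceeded t2 in both mock replicates and t2 exceeded t1 in both irradiated replicates, a pattern that 25.2% of all genes tested in batch 1 showed. The reverse pattern held for 5 members (PTGER4, GNMT, IDI1, ERRFI1 and KRT18), against 23.2% of all genes. With t1 alone the members' median IR change was -0.25, and with t2 alone it was 0.021, beside 0.023 and -0.0081 for all genes. Of 37 members measured in both, 17 (45.9%) were below 0 with t1 and above 0 with t2, against 35.4% of all genes measured in both. The other order, above 0 with t1 and below 0 with t2, held for 7 of these members and for 8228 of the 21749 genes. Opposite signs in either order were thus not particular to the members.

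ABCC4 shows the pattern. Its mock level was 415 and 488 CPM in t1 and 263 and 243 in t2, and its irradiated level 253 and 238 in t1 and 398 and 404 in t2. The IR change was therefore -0.85 (adjusted p = 0.00732) from t1 and 0.66 (adjusted p = 0.000769) from t2, and -0.16 from the sums. STK39 was at -0.80 (adjusted p = 0.0141) and 0.85 (adjusted p = 0.000152), and PLPP1 at -0.83 (adjusted p = 0.0188) and 0.68 (adjusted p = 0.00116). TRPM8, called as falling in the summed data, was at -0.93 (adjusted p = 0.000398) from t1 and 0.15 (adjusted p = 0.333) from t2. KRT18 ran the other way, at 0.77 (adjusted p = 0.00273) and -1.02 (adjusted p = 3.48e-05).

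CROT held its direction, with 66.6 and 84.7 and 69.4 and 59.8 CPM in the t1 and t2 mock libraries and 149 and 157 and 215 and 209 in the irradiated ones, and changes of 1.04 (adjusted p = 0.00031) and 1.71 (adjusted p = 4.74e-07). The 10 reference p53 target genes were also higher in both, at 1.01 to 3.88 with t1 and 1.46 to 3.44 with t2. By themselves, t1 libraries called 8 members lower and 4 higher (7.52% and 9.75% of all genes), and t2 libraries 9 lower and 11 higher (21.7% and 23.0%). Across the 37 members, the t1 minus t2 difference in the IR change had a Pearson correlation of -0.60 with the log10 of gene length, a description over genes that share their libraries. The meaning of t1 and t2 is not given in the labels, and what sets these libraries apart was not tested.

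**Figure D5:**
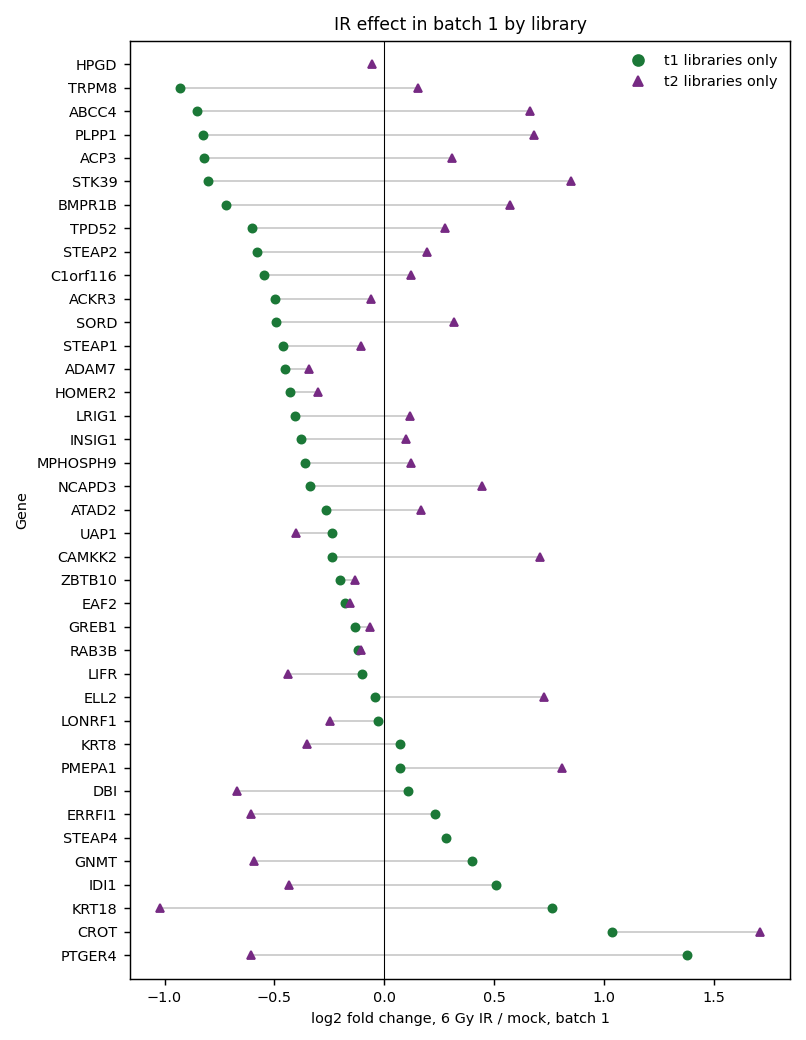
Log2 fold change of each member (x axis) under 6 Gy IR in batch 1 from the t1 libraries alone (circles) and from the t2 libraries alone (triangles), ordered by the t1 value. For ABCC4, STK39, PLPP1 and BMPR1B the symbols lie on opposite sides of 0, and for CROT both lie above 1; HPGD and STEAP4 have 1 symbol each because they passed the filter in 1 set only.

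Baseline transcription of the members spanned a wide range. Per kilobase of gene span in vehicle cells, STEAP2 was highest at 17.3 CPM per kb, followed by C1orf116 at 16.8, STEAP1 at 10.1 and PLPP1 at 9.27. The lowest were BMPR1B at 0.0888, STEAP4 at 0.0524 and HPGD at 0.0491. Of the genes that fell under the drug, ZBTB10 was at 3.40, ABCC4 at 1.55, PMEPA1 at 1.54, ELL2 at 1.32 and GREB1 at 0.63 CPM per kb. Gene spans ran from 3.13 to 400.5 kb, and across the 39 genes the enzalutamide change had a Pearson correlation of -0.33 with log10 length, given as a description only, since the genes share libraries.

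Some members had different levels in the untreated cells of the batches. BMPR1B measured 111 and 108 CPM in mock cells of batch 1 and 27.1 and 44.1 in vehicle cells of batch 2. GNMT was at 17.4 and 14.7 against 3.79 and 4.53, KRT18 at 84.0 and 74.2 against 34.2 and 32.6, KRT8 at 122 and 112 against 55.5 and 61.1 and ERRFI1 at 153 and 129.98 against 63.5 and 63.9, whereas STK39 ran lower in batch 1, at 383 and 456 against 712 and 804. Batch and the vehicle treatment cannot be told apart in these values, and they were not tested. The levels were also scaled within each batch, so part of these differences may come from the scaling.

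Other androgen-responsive genes give the setting. Of 46 further androgen-induced genes listed, 44 were tested, 6 fell under enzalutamide (among them MBOAT2, ZBTB16, SLC45A3 and TMPRSS2) and 0 rose, with a median log2 fold change of -0.23 and 40 of 44 values below 0. The replicate block called 20 of them lower. MBOAT2 was at -0.91 (adjusted p = 1.91e-05), ZBTB16 at -0.83 (adjusted p = 1.91e-05), SLC45A3 at -0.57 (adjusted p = 0.000828), TMPRSS2 at -0.58 (adjusted p = 0.00123), FKBP5 at -0.26 (adjusted p = 0.22) and KLK3, the gene of prostate-specific antigen, at -0.66 (adjusted p = 0.69). The 6 members and the 6 called genes of this list together are 12 of the 18 genes that fell. FKBP5 and KLK3 were not called. Of 7 genes known to be repressed by androgen, 0 were called (1 lower at an unadjusted p under 0.05), and the replicate block called 1 lower. Of 14 sterol synthesis genes 0 were called, with 3 higher at an unadjusted p under 0.05 and a median of 0.11.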

How the data were processed

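PRO-seq was counted in 16 libraries of LNCaP cells, which gave 12 samples in 6 groups of 2 once the t1 and t2 libraries of batch 1 were summed. The deposited values are raw read counts per gene, in 1 table per batch with 60605 identifiers each, of which 99.8% matched a symbol. Per the submitters' processing notes, reads were handled with cutadapt 1.8.1, Bowtie2 2.4.4 and SAMtools 1.9 on hg38. The counting tool, annotation, use of strand and duplicate removal are not given in the sources used here. Nor is it given whether reads close to the promoter were left out. Counts and levels per kilobase may therefore include polymerase near the gene's start, and its part in the changes was not tested.

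Genes passing edgeR's filterByExpr were scaled by TMM and tested with edgeR 4.0.16 (R 4.3.3) by its quasi-likelihood test with Benjamini-Hochberg adjustment over all genes tested, the 4 groups of batch 2 sharing 1 estimate of the spread. The threshold was an adjusted p of 0.05. Fits were also run on simulated counts, drawn independently for each sample, with changes larger than those called for enzalutamide averaged over IR. The simulation held no shared structure by replicate number or by t1 and t2, and its outcome is not given here. Tables and plots were made with Python 3.11.15, pandas 2.3.3 and matplotlib 3.10.9. Alternatives were DESeq2 1.42.0, RLE size factors, total counts, no filter, leaving out each sample, fitting 2 groups only, t1 or t2 alone, and the replicate number as a block. Deviations of same-numbered samples correlated in each of 6 pairs of batch 2 groups (Pearson r from 0.102 to 0.262 across genes) and in batch 1 (0.198). The labels do not say what a number marks.

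The members and gene lists were chosen with earlier results of these data known. Per-sample values are given for members called in any comparison with or without the block, for the 12 lowest p-values of the enzalutamide effect over both IR states, and for the STEAP, ELL2 and EAF2, IDI1 and INSIG1, and keratin sets, and for other members as ranges. For the other lists at most 6 genes have values, the called genes by smallest p and TMPRSS2, KLK3 and FKBP5. Values of 1 gene of these lists are not reported here. Promoters and gene spans came from RefSeq (GRCh38.p14).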

Additional observations from a re-analysis of the deposited data

Results flagged for a closer look

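The radiation effect on HOMER2, a scaffold protein of receptor signalling complexes, differed between the batches when the replicate number was a block. The log2 fold change in batch 1 minus that in vehicle cells of batch 2 was -0.70 (adjusted p = 0.00484, edgeR with the replicate block). Without the block the difference was -0.71 and was not called (adjusted p = 0.187, edgeR). The change was -0.39 in batch 1 and 0.29 in vehicle cells. Batch and replicate number cannot be told apart here.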

How the results depend on the processing

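Counts of called members moved under several alternatives. Under enzalutamide averaged over IR, 6 members became 16 with no filter, 11 with DESeq2, 18 with the replicate block and 2 to 5 when 1 sample was left out. Without IR, 0 became 9, 5, 10 and 0 to 1 under the same changes, and with IR 0 became 5, 1, 8 and 0 to 1, with 1 when 2 groups were fitted. For IR in vehicle cells, 1 became 2 with total counts, 6 with the replicate block and 1 to 2 with a sample left out, and in enzalutamide cells 1 became 2 with no filter and 4 with the replicate block. For enzalutamide plus IR, 10 became 16 with no filter, 20 with the replicate block and 4 to 12 with a sample left out. For IR in batch 1, 2 became 1 with DESeq2, 11 with the replicate block, 12 with t1 alone, 20 with t2 alone and 1 to 3 with a sample left out. Over both batches, 7 became 14 with the replicate block, 4 with t1 alone, 1 with t2 alone and 1 to 6 with a sample left out. For the batch difference, 0 became 1 with no filter, 1 with DESeq2, 1 with the replicate block, 1 with t1 alone and 13 with t2 alone. With t2 alone, IR in batch 1 had 21.7% of all genes called lower and 23.0% higher. No share of all genes is given for no filter, total counts, 2 groups or omitted samples. The same holds for t1 or t2 alone outside batch 1, and for DESeq2 in part. Counts without such a share are not results about the members. The interaction stayed at 0 in each alternative. TRPM8 in batch 1 reversed with t2 alone, to 0.15. The cause was not tested in any of these. With 2 samples per group, the lone sample left in an omission is assumed to vary like the other groups. Genes near 1 CPM, such as HPGD and STEAP4, had intervals too wide to place their changes.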
